A study of Mus musculus with 2 samples.

Results

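The kinesin motor family was followed in 2 RNA libraries of embryonic stem (ES) cells from the mouse, 1 wild type (WT) and 1 labelled T29I. The family was taken as every listed gene whose symbol is Kif, a number and at most 1 letter with an optional further digit. This rule found 37 of 51826 genes. The rule leaves out kinesins under other names, such as Cenpe and the Kifc genes, and pseudogenes such as Kif4-ps. Both libraries came from the v6.5 line, cultured pluripotent cells of the early mouse embryo, with the strain given as NBA1-19349. The series title names PRSS1, a trypsinogen gene, and the genotype of the second library is T29I. The labels do not say how the change was introduced, whether the cells were 1 clone, or what treatment or culture they had. RNA was measured as TPM, a level scaled by transcript length that sums to the same total in each library. With 1 library per group nothing is replicated, no p-value is given, and "higher" or "lower" describes these 2 libraries. Genotype, culture and library preparation cannot be told apart.

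Kinesins are motor proteins that use ATP to move along microtubules or to take them apart at their ends. A dividing cell uses one set of them to separate the spindle poles, move and align chromosomes and finish cytokinesis. Other sets carry vesicles, organelles and ciliary cargo. ES cells divide fast, and mitotic kinesins are cell-cycle genes whose transcripts accumulate towards mitosis.

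All kinesins share a motor domain with an ATP-binding loop, the P-loop, and its coding letters show a feature that differs between members measured here, the use of G or C at the third position of codons. A pattern search of the translated GENCODE M21 transcripts (GRCm38) found the loop in 35 of 37 members, and not in Kif26a or Kif26b, which are known as kinesins without normal ATPase activity. The 24 bases of the loop are shown for 5 members of the kinesin-3 and kinesin-2 groups and for 4 other members, as examples of how these letters vary among relatives. Capitals mark a G or C at the third position of its 8 codons.
Kif1a, chr1:93077739-93077762, - strand: ggGcaGacGggGgcCggCaaGtcC
Kif1c, chr11:70703804-70703827, + strand: ggGcaGacGggGgctggGaaGtcC
Kif1b, chr4:149274967-149274990, - strand: ggGcaGactggtgctggGaaatcC
Kif3c, chr12:3366269-3366292, + strand: ggCcaGactggCactggCaaGacC
Kif3b, chr2:153316566-153316589, + strand: ggacaaacaggaactggGaaaacC
Kif18b, chr11:102915666-102915689, - strand: ggCgcCacCggGgctggGaaGaca
Kif18a, chr2:109289690-109289713, + strand: ggtgcCactggatctggGaaaact
Kif11, chr19:37384736-37384759, + strand: ggtcaGactggCactggaaaaact
Kif2a, chr13:106979480-106979503, - strand: ggGcaGactggaagtggGaaaact
Each of these stretches lies within 1 coding exon. The number of codons ending in G or C was 8 of 8 in Kif1a, 7 in Kif1c and 4 in Kif1b. It was 6 in Kif3c and 2 in Kif3b, 6 in Kif18b and 2 in Kif18a, 2 in Kif11 and 3 in Kif2a. These counts do not order the members by their ratio between the libraries: Kif14 and Kif15, not printed, have 5 of 8 and log2 ratios of T29I over WT of -3.37 and -3.07, and Kif2a has -0.69. Over the whole coding sequence the share of codons ending in G or C ran from 35.0% in Kif18a to 73.3% in Kif5a among members averaging 1 TPM or more.

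Summed over the 37 genes, kinesin RNA was 1321 TPM in the WT library and 374 TPM in the T29I library, 3.53-fold lower in the latter. These sums rested on an estimated 45026 and 13517 reads. In bulk RNA, fewer cells of a type and less RNA per cell cannot be told apart. Of the 37 genes, 29 averaged 1 TPM or more and the other 8 were close to absent. All 29 reached 1 TPM in the WT library and 27 of them in the T29I library, so Kif1b and Kif21a passed through the WT library alone. Kif21a had the lowest mean among the 29, at 1.67 TPM, and Kif19a the highest among the 8, at 0.666 TPM. Of the 29, 28 had a lower and 1 a higher TPM in the T29I library. Differences are given on the log2(TPM + 1) scale, where the added 1 shrinks those of weakly expressed genes. By this scale 21 members (72.4%) were lower by 2-fold or more and 1 (3.45%) was higher by as much, against a background of 45.7% lower and 9.97% higher among all 12943 genes averaging 1 TPM or more. The median log2 ratio of T29I over WT was -1.76 in the family and -0.84 over all those genes.

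**Figure D1:**
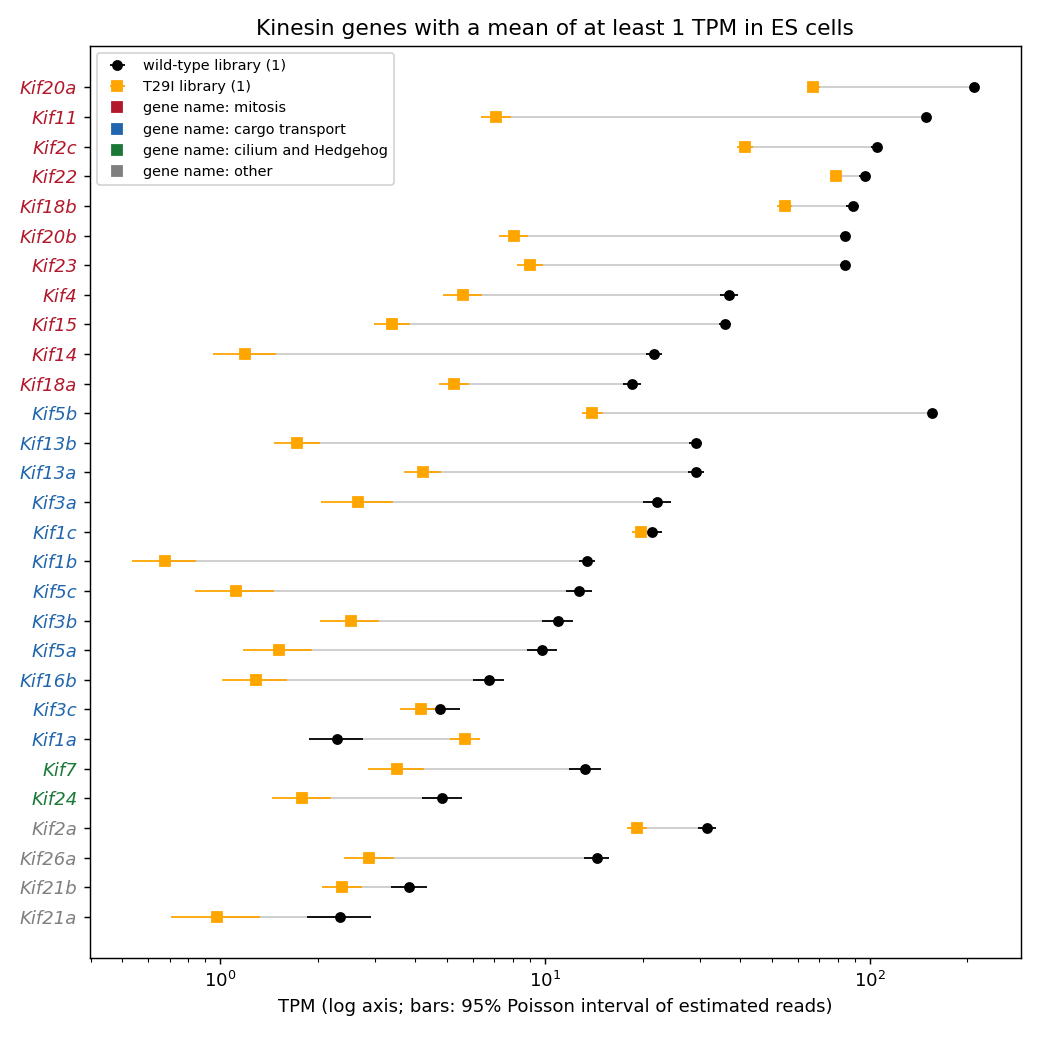
TPM (log axis) of the 29 kinesin genes averaging 1 TPM or more in the WT library (black circles) and the T29I library (orange squares), with 95% Poisson intervals of the estimated reads as bars and gene names coloured by role. Kif1a alone lies higher in the T29I library; the bars of the 2 libraries overlap for Kif1c and Kif3c.

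Genes with long or GC-poor transcripts were in general lower in the T29I library. The kinesins stood partly within this pattern, partly below it and partly above it. Over the 9375 genes averaging 5 TPM or more the median log2 ratio was -0.90, called the shift here. Among 9100 coding genes with such levels, Spearman's rho of the log2 ratio was -0.53 with transcript length (that of the longest one) and 0.56 with GC content, a description across genes that share 2 libraries. Kinesin transcripts are long: their median was 6032 bases against 3101 over all genes averaging 1 TPM or more, and 20 of the 29 lay in the longest class of 5 equal classes of coding genes. That class had a median log2 ratio of -2.05 and its 20 kinesins one of -1.88. The 6 kinesins of the middle length class, whose genes had a median of -0.80, had one of -1.48. The 3 kinesins of the class between, Kif11, Kif15 and Kif7, had -3.07 where its genes had -1.29, and 0 of the 29 lay in the shorter classes. Across 5 classes of GC content the kinesin median was the lower one in each, from -3.15 against -1.78 in the GC-poorest class, through -2.68 against -1.60, -1.19 against -0.95 and -1.40 against -0.18, to -1.67 against 0.34 in the GC-richest. These GC classes leave length aside, and kinesins are longer than most genes in them. Against coding genes of the same length and GC class, 18 of the 29 lay below the class median and 11 above it. Each member is therefore given as deposited, relative to the shift, and adjusted. The adjusted value is the residual of a fit on length and GC content. Where a real difference runs along length or GC content, the adjustment takes it away as well.

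Relative to the shift, 14 of the 29 kinesins (48.3%) were lower by 2-fold or more and 1 was higher by as much, against a background of 22.2% lower and 26.0% higher. After adjustment 9 (31.0%) were lower by that much and 6 (20.7%) higher, against 15.5% lower and 17.6% higher. The family median was -0.87 relative to the shift, where all tested genes had 0.06, and -0.57 after adjustment (95% interval over genes -1.08 to 0.51), where they had 0.04. Such intervals of medians, here and below, take genes as separate draws and hold no spread between libraries. Some members thus stood lower than genes like them, some higher, and 14 of the 29 were within 2-fold after adjustment. Replacing the longest transcript by merged exon length, or subtracting the median of coding genes of the same length class and GC class, gave 2 further versions of the adjustment. Under all 3 versions 6 members were lower by 2-fold or more, namely Kif11, Kif13b, Kif23, Kif3a, Kif5b and Kif7. The members higher by as much under all 3 were Kif1a, Kif2a and Kif3c. The share of all genes passing under all 3 was not computed, so these counts have no background beside them. Kif1a and Kif3c averaged 3.99 and 4.45 TPM, below the 5 TPM of the genes behind the fits and class medians. Within the 29, Spearman's rho of the deposited log2 ratio was 0.45 with transcript GC content, 0.48 with the share of codons ending in G or C, and -0.044 with transcript length. These values describe 29 points that share 2 libraries.

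**Figure D2:**
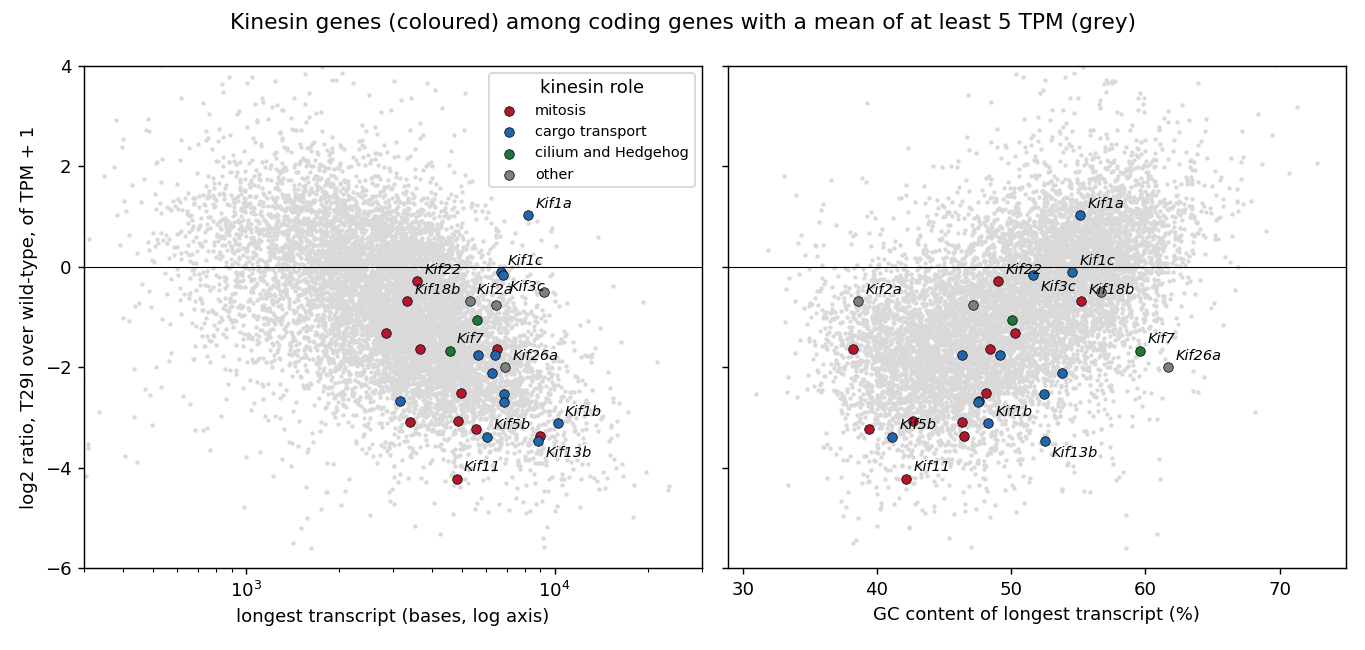
Log2 ratio of T29I over WT (TPM + 1) against the length of the longest transcript (left, bases, log axis) and its GC content (right, percent), with 29 kinesins coloured by role over coding genes averaging 5 TPM or more in grey. Kinesins sit among the long transcripts; Kif1a, Kif1c, Kif3c and Kif2a lie above most genes of like length, and Kif11, Kif7 and Kif26a lie below most genes of like GC content.

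The mitotic kinesins made up 70.4% of the kinesin TPM in the WT library and 75.4% in the T29I library. Their sum was 931 and 282 TPM, and 11 of the 12 averaged 1 TPM or more; Kif2b, listed at 0 in both libraries, was the exception. In the T29I library 9 of the 11 (81.8%, against 45.7% of all genes) were lower by 2-fold or more as deposited, 6 (54.5%, against 22.2%) relative to the shift and 4 (36.4%, against 15.5%) after adjustment, and 0 were higher by as much on any of these scales. Their median log2 ratio was -2.52 as deposited, -1.63 relative to the shift and -0.84 after adjustment (interval -1.82 to 0.73). The count of 0 depends on the grouping, which was made with earlier results known. Kif2a, which also acts at spindle poles, was placed with the remaining kinesins and had an adjusted value of 1.44.

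Both motors that hold the spindle bipolar were far lower in the T29I library. Kif11, also called Eg5, is a motor of paired heads that pushes the spindle poles apart. It lies at chr19:37376403-37421859 on the + strand of GRCm38. Kif11 was at 149.5 TPM in the WT library (counting interval 146 to 153, from 5792 reads) and 7.10 TPM in the T29I library (6.38 to 7.88, from 350 reads). This is a 21.1-fold lower level, and the rank of Kif11 within the family was 3 in the WT and 10 in the T29I library. Its log2 ratio of -4.22 was the lowest of the family, as was its adjusted value of -2.34. Coding genes of the same length and GC class had a median of -1.74. Kif15, a motor that can take over from Kif11 in holding the poles apart, was at 36.0 TPM (34.4 to 37.5) in the WT library and 3.40 TPM (2.98 to 3.84) in the T29I library. The 2 transcripts are nearly equal in length, 4819 bases for Kif11 and 4858 for Kif15, and in GC content, 42.2% and 42.7%. Kif11 nevertheless stood 1.14 log2 units further down than Kif15, with 4.16 times the level of Kif15 in the WT library and 2.09 times in the T29I library.

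Chromosome-arm motors differed from each other. Kif22, or Kid, binds chromosome arms and pushes them towards the spindle equator. Kif22 was at 96.7 TPM (93.0 to 101) in the WT library and 78.9 TPM (75.9 to 82.0) in the T29I library, a 1.23-fold difference. It was the fifth most abundant kinesin in the WT library and the most abundant in the T29I library, where its estimated reads were 2556 against 2462. Kif4, which binds chromosomes and, with Prc1, the overlapping microtubules of the midzone, was at 36.9 TPM (34.7 to 39.2) and 5.60 TPM (4.86 to 6.42). The adjusted values were 0.81 for Kif22 and -0.96 for Kif4. The longest transcript of Kif22, used for its value, has only 4 exons and may not be the main mRNA.

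Kinesins that act on microtubule ends differed less than Kif11 and Kif15. Kif2c, or MCAK, takes microtubules apart at centromeres and corrects wrong attachments. Kif2c was at 105 TPM (101 to 109) in the WT library and 41.5 TPM (39.2 to 43.9) in the T29I library, and it ranked as number 4 of the family in both. Kif18a dampens the swing of chromosomes at the spindle equator, and it was at 18.5 TPM (17.4 to 19.8) and 5.27 TPM (4.72 to 5.85). Its relative Kif18b, which shortens astral microtubules, was at 88.6 TPM (84.4 to 93.0) and 54.8 TPM (51.8 to 57.8). As deposited Kif18a stood lower than Kif18b, at -1.64 against -0.68, and after adjustment the order turned, at 0.73 against -0.29. Their longest annotated transcripts are unlike, with 6509 bases and 38.2% GC for Kif18a and 3326 bases and 55.2% GC for Kif18b. That of Kif18a has only 3 exons, and the coding sequence of the gene has 2658 bases. Whether it is the main mRNA was not tested, and the turned order depends on it.

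Among the motors of the midzone and cytokinesis, Kif20a was one of the leading kinesins in both libraries, while its relative Kif20b and the centralspindlin motor Kif23 were much lower in the T29I library. Kif20a, or MKLP2, carries the chromosomal passenger complex to the midzone, and it was the most abundant kinesin in the WT library at 209.9 TPM (204 to 216) and number 2 in the T29I library at 67.2 TPM (64.2 to 70.2). Kif20b was at 83.9 TPM (80.9 to 86.9) and 8.03 TPM (7.23 to 8.89). Kif23, or MKLP1, was at 83.8 TPM (81.0 to 86.6) and 9.01 TPM (8.21 to 9.86), a 9.30-fold difference, with an adjusted value of -1.82. Its partner in centralspindlin, Racgap1, was at 67.4 TPM and 33.6 TPM, with an adjusted value of 0.57. The ratio of Kif20a to Kif20b went from 2.50 in the WT library to 8.37 in the T29I library; the difference in log2 ratio was 1.60 as deposited and 0.63 after adjustment. Kif14, which anchors citron kinase at the midbody, was at 21.7 TPM (20.5 to 23.0) and 1.20 TPM (0.953 to 1.49). Its deposited ratio of -3.37 was among the lowest, and its adjusted value was -0.84. The other 2 versions of the adjustment gave -1.31 with merged exon length and -1.07 against its length and GC class.

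**Figure D3:**
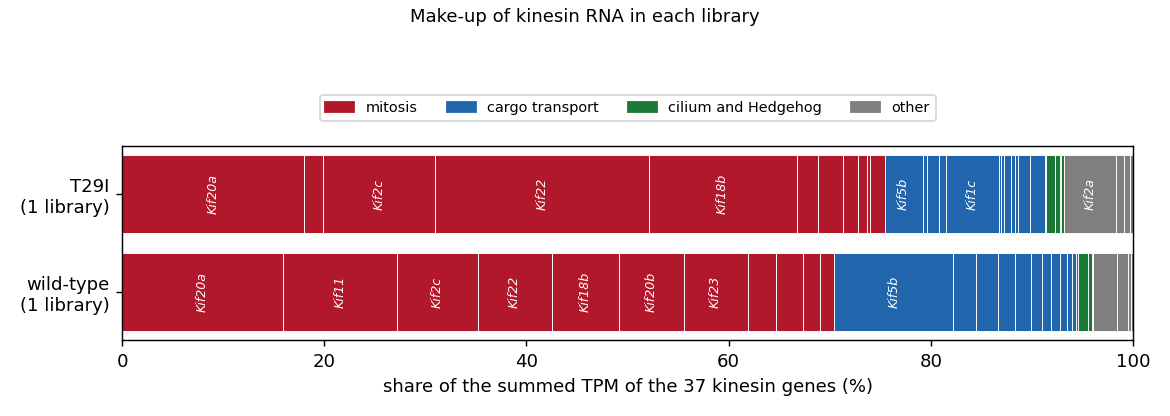
Share of the summed TPM of the 37 kinesin genes (percent) held by each gene in the WT and T29I libraries, coloured by role, in the same gene order in both bars. Kif20a, Kif5b and Kif11 held 39.0% in the WT library, and Kif22, Kif20a and Kif18b held 53.7% in the T29I library.

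Kinesin promoters were searched for 2 motifs, the cell-cycle genes homology region, known as CHR, and the CCAAT box. The letters searched were TTTGAA for CHR, which reads as TTCAAA on the other strand. CCAAT reads as ATTGG there. In RefSeq promoter sequences (GRCm38.p6), 31 of the 37 members matched by symbol (not Kif5a, Kif5b, Kif13b, Kif19a, Kif20a or Kif21b), and the 250 bases before each start were searched on both strands. TTTGAA was found in 5 of the 11 mitotic kinesins with an entry, 1 of 10 transport kinesins and 18.3% of 27025 genes with an entry. These 11 include Kif2b, listed at 0 in both libraries, and lack Kif20a. In Kif14 and Kif2c the match began 228 and 103 bases before the RefSeq start. Both of those searched stretches lie inside the gene as annotated in GENCODE. CCAAT was found in 7 of the 11, 3 of 10 and 37.5%, and no member had the 2 motifs overlapping. Both motifs were found in 3 of the 11 mitotic kinesins, 0 of 10 transport kinesins and 6.45% of all genes with an entry. The 30 bases that end with the match nearest the start are shown for 3 mitotic kinesins that have it within 20 bases of the start and whose ratios between the libraries were far apart, with the motif in capitals.
Kif11, chr19:37376339-37376368, + strand: tggtccggtcagtcgtctccatttTTCAAA
Kif15, chr9:122951038-122951067, + strand: ggcgtggtccgttggggcgccaaaTTCAAA
Kif22, chr7:127042432-127042461, - strand: gagagggaggcggggccccggtaaTTCAAA
The match began 19 bases before the RefSeq start in Kif11 and Kif15 and 17 bases before it in Kif22. These 3 genes with the same letters at nearly the same place had log2 ratios of -4.22, -3.07 and -0.29. A match is a description of letters and does not show that a factor binds there.

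The transport kinesins summed to 319 TPM in the WT library and 59.6 TPM in the T29I library, and their share of kinesin TPM was 24.1% and 15.9%. The sums differed 5.35-fold, and 3.58-fold without Kif5b. Of 13 listed genes 12 averaged 1 TPM or more. As deposited 9 of the 12 (75.0%, against 45.7% of all genes) were lower by 2-fold or more and 1 was higher by as much. Relative to the shift 7 (58.3%, against 22.2%) were lower and 1 higher. After adjustment 3 were lower and 3 higher (25% each, against 15.5% and 17.6%). The median of the group was -2.32, -1.42 and -0.54 on the 3 scales (adjusted interval -1.19 to 1.35).

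Conventional kinesin, the motor of long-range vesicle and organelle transport, is formed by Kif5 heavy chains and Klc light chains. Kif5b, its ubiquitous heavy chain, was at 156 TPM (152 to 159) in the WT library and 14.0 TPM (13.0 to 15.1) in the T29I library, a factor of 11.1, with an adjusted value of -1.19. Kif5a and Kif5c, best known from neurons, had 9.84 and 12.7 TPM in the WT library against 1.52 and 1.12 TPM in the T29I library. All 3 heavy chains were thus lower in the T29I library, and Kif5b remained the most abundant, at 12.2 times Kif5c in the WT library and 12.5 times in the T29I library, and at 15.8 and 9.25 times Kif5a. Of the light chains, Klc1 was at 27.2 and 13.5 TPM, Klc2 at 15.1 and 17.2 TPM, and Klc4 at 24.9 and 36.4 TPM. Klc3 was at 5.82 and 32.0 TPM, 5.49-fold higher in the T29I library.

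Of the 12 pairs of relatives or partners compared, Kif1a and Kif1b differed most as deposited and after adjustment; with merged exon length their difference was 2.75 and that of Kif3c and Kif3a 2.84. The P-loop letters of Kif1a and Kif1b are among those printed. Kif1a, the axonal motor for synaptic vesicle precursors, lies at chr1:93015464-93101951 on the - strand. It was at 2.29 TPM (1.89 to 2.76, from 111 reads) in the WT library and 5.69 TPM (5.11 to 6.32, from 351 reads) in the T29I library. This made it the single member of the 29 with a higher TPM there, with a log2 ratio of 1.02 and an adjusted value of 2.79. Kif1b, which carries mitochondria and synaptic vesicle precursors, lies at chr4:149176319-149307693 on the - strand. It was at 13.5 TPM (12.8 to 14.3) and 0.679 TPM (0.538 to 0.846), a factor of 19.9. Kif1c, a widely expressed motor of vesicles, was at 21.4 TPM (19.9 to 22.9) and 19.7 TPM (18.5 to 21.0), and these intervals overlap. Kif1b was thus at 5.90 times the level of Kif1a in the WT library, while Kif1a was at 8.39 times that of Kif1b in the T29I library. The Kif1a transcript has 8206 bases and 55.1% GC, that of Kif1c 6684 bases and 54.5%, and that of Kif1b 10233 bases and 48.3%. After adjustment Kif1b was at -0.44 and Kif1c at 1.35, and the difference between Kif1a and Kif1b was 3.24 log2 units, against 4.14 as deposited.

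The kinesin-2 genes showed a like split. Kif3a and Kif3b pair with each other and with Kifap3 to drive intraflagellar transport, the traffic that builds cilia, while Kif3c can replace Kif3b as the partner of Kif3a. Kif3a was at 22.2 TPM (20.1 to 24.4) in the WT library and 2.66 TPM (2.04 to 3.40) in the T29I library. Kif3b was at 11.0 TPM (9.81 to 12.2) and 2.53 TPM (2.04 to 3.09), and Kifap3 at 33.1 and 9.13 TPM. Kif3c was at 4.76 TPM (4.10 to 5.50) and 4.15 TPM (3.60 to 4.76), with overlapping intervals. Kif3a stood at 4.66 times Kif3c in the WT library, whereas in the T29I library Kif3c stood at 1.56 times Kif3a. Here length went against the pattern over all genes: the Kif3a transcript has 3161 bases and that of Kif3c 6791, so adjustment widened their difference from 2.50 to 3.15 log2 units. Kif17, the homodimeric member, was at 0.294 and 0.231 TPM, from 7 reads in each library.

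The endosome motors of the kinesin-3 group were lower as well. Kif13a, which moves recycling endosomes, and Kif13b were level in the WT library, both at 29.2 TPM, and stood at 4.21 TPM (3.68 to 4.79) and 1.73 TPM (1.47 to 2.03) in the T29I library. Their transcripts share a GC content of 52.5%, with 6866 bases for Kif13a and 8865 for Kif13b. Kif16b, a motor of early endosomes, was at 6.72 TPM (5.99 to 7.50) and 1.29 TPM (1.01 to 1.61), with a deposited ratio of -1.75 and an adjusted one of 0.26.

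Kinesins of the cilium and of Hedgehog signalling were low in ES cells, with sums of 19.4 TPM in the WT library and 6.82 TPM in the T29I library. Kif7, which organises the ciliary tip and regulates Gli factors, was at 13.3 TPM (11.9 to 14.9) and 3.50 TPM (2.87 to 4.24). Its transcript has 59.6% GC, and genes of its length and GC class had a median log2 ratio of -0.23 while Kif7 had -1.67, a difference of -1.44. Its adjusted value from the fit was -1.37. Kif24, which holds back cilium formation at the mother centriole, was at 4.83 TPM (4.19 to 5.55) and 1.79 TPM (1.45 to 2.19), with an adjusted value of 0.51. The motile-cilium genes Kif6, Kif9 and Kif27 rested on at most 14 reads in a library. Kif19a, which limits the length of motile cilia, was at 0.142 TPM from 3 reads and 1.19 TPM from 32 reads, and its intervals, 0.0293 to 0.415 and 0.814 to 1.68 TPM, did not overlap.

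Among the remaining kinesins, Kif2a and Kif26a departed from the length and GC pattern in opposite directions. Kif2a, a microtubule depolymerase of spindle poles and growing neurites, was at 31.6 TPM (29.7 to 33.6) in the WT library and 19.2 TPM (17.9 to 20.6) in the T29I library. Its transcript has 5304 bases and only 38.6% GC, a class whose coding genes had a median log2 ratio of -2.33, and Kif2a had -0.69, an adjusted value of 1.44. Kif26a stood on the other side. With 61.7% GC it has the most GC-rich transcript of the 29, yet it was at 14.5 TPM (13.2 to 15.8) and 2.89 TPM (2.42 to 3.42), with an adjusted value of -1.24. Genes of its length and GC class had a median log2 ratio of -1.19 and Kif26a had -1.99. That difference of -0.80 was within 2-fold. Kif21a and Kif21b, which restrain microtubule growth, had 2.35 and 3.83 TPM in the WT library against 0.982 and 2.39 TPM in the T29I library. Their adjusted values were 1.22 and 1.35. Ratios between levels this low are compressed by the added 1 TPM, so such adjusted values can overstate a member's position. Kif26b was at 0.367 and 0.0309 TPM, from 28 and 3 reads, Kif12 had 1 read in the WT library and was listed at 0 in the T29I library, and Kif27 was at 0.302 TPM and listed at 0.

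**Figure D4:**
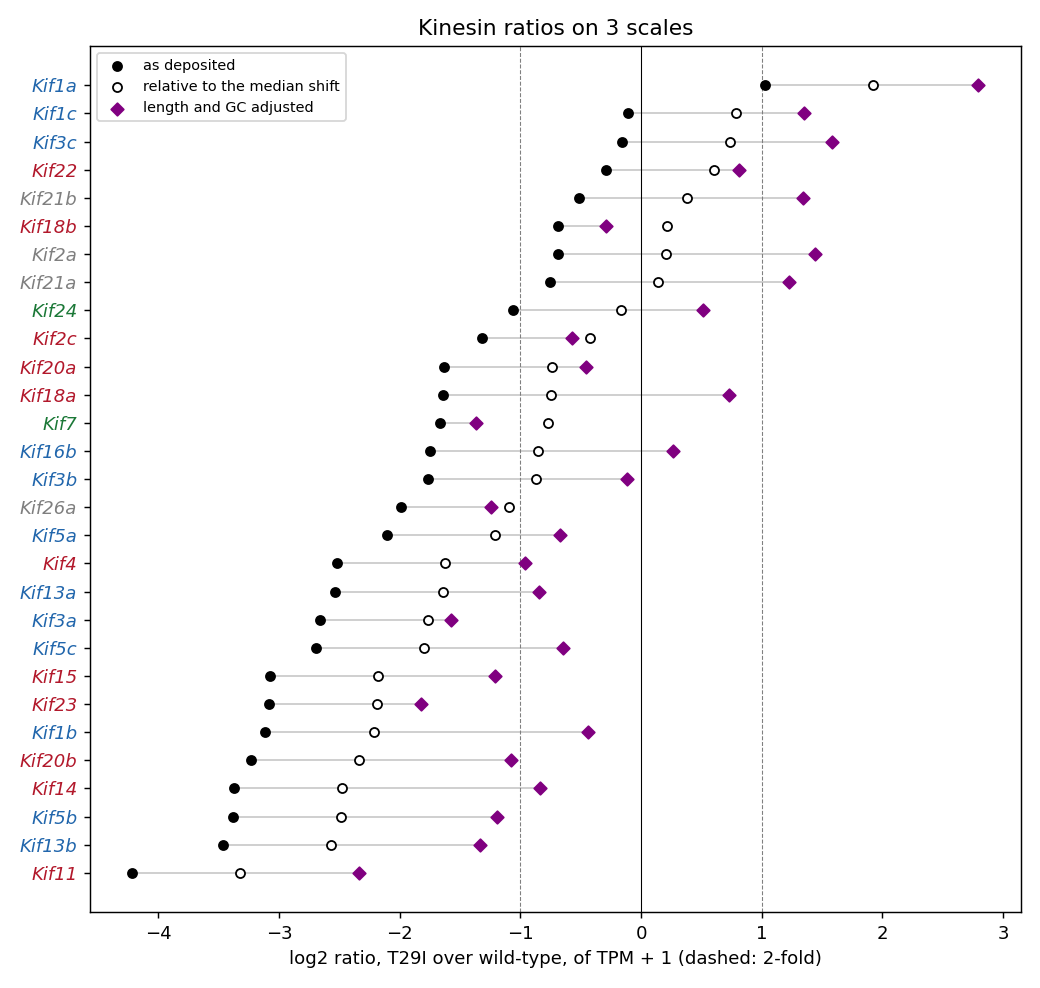
Log2 ratio of T29I over WT (TPM + 1) of the 29 kinesins as deposited (black), relative to the median shift (open) and adjusted for length and GC content (purple diamonds), ordered by the deposited value, with gene names coloured by role as in the plot of TPM by library and dashed lines at 2-fold. Kif11 stays lowest and Kif1a highest on all 3 scales, while 9 members, Kif18a, Kif16b and Kif24 among them, lie below 0 as deposited and above 0 after adjustment.

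Other genes of microtubule transport went in both directions. Tubulins, the subunits of the track, summed to 10190.1 TPM in the WT library and 17885 TPM in the T29I library; of 13 averaging 1 TPM or more, 5 (38.5%, against 9.97% of all genes) were higher by 2-fold or more and 0 lower as deposited. Relative to the shift 12 (92.3%, against 26.0%) were higher, and after adjustment 5 (38.5%, against 17.6%). On these scales 0 were lower, against 22.2% and 15.5% of all genes. Tubulin transcripts are short, with a median length of 1803 bases. Tubb4a was at 1.38 and 29.1 TPM and Tuba1a at 993 and 3079 TPM, whereas Tubb4b was at 1176 and 1032 TPM and Tubb3 at 237 and 260 TPM. The opposing motor, dynein with its dynactin cofactor, had 20 measured members, of which 10 (50%, near the 45.7% of all genes) were lower by 2-fold or more and 0 higher as deposited, and 4 lower (20%, against 15.5%) and 2 higher (10%, against 17.6%) after adjustment. Its heavy chain Dync1h1 was at 116 and 14.0 TPM, with an adjusted value of 0.054, and the light intermediate chain Dync1li2 was at 30.1 and 2.69 TPM. The short light chain Dynll1 was at 257 and 477 TPM and Dctn3 at 91.5 and 152 TPM. Of 14 intraflagellar transport genes, the cargo train of kinesin-2, 8 (57.1%, against 45.7% of all genes) were lower by 2-fold or more and 1 higher as deposited. After adjustment 1 (7.14%, against 15.5%) was lower and 2 (14.3%, against 17.6%) higher. Ift74 was at 24.5 and 1.99 TPM and Ift88 at 8.82 and 1.41 TPM, while Ift46 was at 24.1 and 39.1 TPM and Ift27 at 40.7 and 90.8 TPM.

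Kinesins under other names were also lower for the most part, with 3 of 5 measured (60.0%, against 45.7% and 15.5% of all genes) lower by 2-fold or more both as deposited and after adjustment. Cenpe, the kinetochore motor, was at 56.2 and 1.22 TPM, a factor of 46.2. Kifc3 was at 25.7 and 2.91 TPM and Kifc5b at 48.3 and 16.5 TPM. Kifc1, a minus-end motor that focuses spindle poles and a near copy of Kifc5b with which it may share reads, was at 150.2 and 89.3 TPM, and Kifc2 at 13.8 and 24.7 TPM. Of 20 kinesin partners, 8 (40.0%, against 45.7% of all genes) were lower by 2-fold or more and 1 higher as deposited. After adjustment 1 (5%, against 15.5%) was lower and 0 were higher. Trak2, an adaptor of mitochondria to Kif5, was at 25.1 and 2.69 TPM, Mapk8ip3 at 10.2 and 1.04 TPM and Mapk8ip1 at 23.8 and 36.8 TPM. The mitotic kinase Plk1 was at 247 and 298 TPM and Aurka at 164 and 200.5 TPM; both were picked with their values known. Tpx2, which binds Kif11 on the spindle and was picked in the same way, was at 177 and 33.7 TPM. Of 12 proliferation markers, 7 (58.3%, against 45.7% of all genes) were lower by 2-fold or more and 0 higher as deposited. After adjustment 2 (16.7%, near the 15.5% of all genes) were lower and 1 higher. They ran from Mki67 at 129 and 3.48 TPM and Top2a at 310.0 and 61.8 TPM to Mcm5 at 421 and 457 TPM and Mcm2 at 232 and 302 TPM.

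All 12 ES markers were above 5 TPM in both libraries, with sums of 11757 and 7753 TPM. As deposited 8 of the 12 (66.7%, against 45.7% of all genes) were lower by 2-fold or more in the T29I library. By the same measure 1 (8.33%, against 9.97%) was higher. Relative to the shift 4 (33.3%, against 22.2%) were lower, and after adjustment 5 (41.7%, against 15.5%) were lower and 0 higher. Zfp42 was at 544 and 23.3 TPM, Klf4 at 186 and 11.0 TPM and Nanog at 765 and 140.3 TPM, whereas Pou5f1 was at 1722 and 1454 TPM and Utf1 at 972 and 2459 TPM; these 5 were picked with their values known. The 10 trophoblast markers summed to 126 and 898 TPM. Krt8 (28.6 and 389 TPM) and Krt18 (15.4 and 353 TPM) held most of the T29I sum. Hand1 was at 0.868 and 79.5 TPM, Krt7 at 0.410 and 15.2 TPM and Plac1 at 0 and 4.56 TPM. Eomes was at 6.21 and 2.19 TPM and Tfap2c at 73.4 and 53.1 TPM. Gata3, Cdx2 and Elf5 reached at most 1.56 TPM. The 9 primitive endoderm markers summed to 52.9 and 9.71 TPM. Lama1 (33.8 and 0.588 TPM) held most of the WT sum. Gata4, Sox17 and Dab2 were higher in the T29I library, at no more than 1.13 TPM. These genes were picked with their values known. The 10 fibroblast or feeder markers summed to 181 and 162 TPM, with Lum at 0 in both, and the 8 neural markers to 277 and 316 TPM. Most of these last 2 sums was Vim (172 and 139 TPM) and Tubb3 (237 and 260 TPM), picked with their values known. The part of other cell types, or of these lower ES markers, in the kinesin values was not tested. The estimated depth was 16909050 and 15282558 reads.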

How the data were processed

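The values the authors deposited are TPM per gene, in 1 table of both libraries keyed by Ensembl identifier and symbol. Isogen was used for extraction and a stranded TruSeq total-RNA kit with Ribo-Zero for the libraries, per the labels' protocols. Aligner, counting tool, build and annotation: not given in the sources used here. TPM divides by length and scales each library to 1 sum, so a few abundant RNAs in 1 library lower all others there. Columns were assigned through the sample descriptions.

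Of 51826 identifiers 51633 matched GENCODE M21 (GRCm38), which gave merged exon length and the length and GC content of the longest transcript. This transcript was taken whether coding or not, and it can differ from the main mRNA of a gene. The authors' build may differ. TPM times merged exon length, divided by the value of 1 read, came to a whole number within 0.05 for 86.4% (WT) and 83.8% (T29I) of values under 200 reads, against 10% by chance. These estimated reads gave 95% exact Poisson intervals, which cover counting error only. Ratios are log2(TPM + 1) of T29I minus WT. The adjusted value is what remains after a quadratic surface in log2 length and GC content, interaction included, fitted to 9100 coding genes averaging 5 TPM or more, which accounted for 44.9% of the variance; intervals of medians are 95% binomial intervals over genes. The fit and the read estimate were tried on simulated data. The simulated trend was linear in log2 length and GC content, with less scatter than here. It therefore does not show how accurate the fit is in these data. Python 3.11.15, numpy 2.4.6, pandas 2.3.3 and scipy 1.17.1 were used.

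The members, role groups and lists were chosen with earlier results of these data known. All members averaging 1 TPM or more are named with values, and of each other list of microtubule genes and proliferation markers the 2 highest and 2 lowest ratios among genes averaging 5 TPM or more; other genes are partners of a described member, all of one set, or were picked with their values known, as stated. Alternatives were the pseudocount, the filter on low values, the scaling, and 3 length and GC treatments, of which 2 were chosen after seeing the data.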

Additional observations from a re-analysis of the deposited data

How the results depend on the processing

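No paired analysis was possible because each group has 1 library. With a pseudocount of 0.1 or 5 TPM all 29 members kept their direction, and the count of members at least 2-fold lower was 22 and 19. The single higher member, Kif1a, was not counted with a pseudocount of 5 TPM or a mean of at least 5 TPM, where the count was 0. The family median of -1.76 became -0.87 relative to the shift, -0.57 after adjustment, -0.58 with merged exon length and -0.52 against the length and GC class. The counts lower and higher were 9 and 6, 13 and 4, and 9 and 6 under these last 3 treatments. After adjustment the shares over all genes were 15.5% lower and 17.6% higher. For merged exon length, the class and the other pseudocounts no share over all genes was computed. Among called members, Kif16b, Kif18a and Kif24 reversed to 0.26, 0.73 and 0.51 after adjustment, 0.16, 0.68 and 0.47 with merged exon length, and 0.54, 0.68 and 1.07 against the class, where Kif3b reversed to 0.36. The cause was not tested.

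The median of the 2 measured cilium and Hedgehog kinesins, -1.37, was -0.82 with a pseudocount of 5 TPM, -0.36 without a filter, -0.47 relative to the shift, and -0.43, -0.64 and -0.19 under the 3 length and GC treatments. That of the 4 other kinesins, -0.72, was -0.45 with a pseudocount of 5 TPM, and 0.17, 1.28, 0.90 and 1.11 relative to the shift and under the 3 treatments. The partners' median, -0.68, was 0.21 relative to the shift and 0.041 against the class. The dynein and dynactin median, -0.92, was -0.021 relative to the shift and 0.14, 0.21 and -0.0061 under the treatments, and the tubulin median, 0.69, was 1.59 relative to the shift. Rescaled without the 20 most abundant genes of each library, summed TPM in the WT and T29I libraries was 1635 and 527 for the family, 1152 and 397 for mitotic and 394 and 83.9 for transport kinesins. Low read numbers limit Kif19a and the other 7 members under 1 TPM.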
